A study of Xenopus laevis with 9 samples.

Results

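Most of the genes described here build and hold together epithelial sheets. The set holds keratins, claudins and their tight junction partners, cadherins and catenins, desmosome and plakin genes, epcam, and the epithelial regulators grhl, tp63 and trim29. It is called epithelial for short, though it also takes in genes of other tissues or roles, such as cdh2, cdh11, cldn5 and ctnnbl1. The genes were picked by symbol and not by signal, but earlier results of these data were known when the set was chosen. A fixed pattern of symbol beginnings was applied to the probe sets with 1 annotated symbol, and it picked 70 of the 7531 gene symbols on the array. These 70 symbols are read by 86 of the 15491 probe sets that are not controls, and they come down to 52 gene names once the endings .L and .S are dropped. The endings mark homeologs, the gene copies of the long and short subgenomes of Xenopus laevis, the African clawed frog. By class there were 21 probe sets for type I keratins, 8 for type II keratins, 12 for claudins, 10 for cadherins, 14 for desmosome and plakin genes, 6 for junction catenins, 4 for other ctnn genes, 4 for occludin and tjp genes, 4 for regulators, 2 for epcam and 1 for cldnd1.

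Expression came from Affymetrix arrays hybridised with RNA from tissue pieces of embryos at stage 26, a tailbud stage, with 75 to 100 embryos pooled per sample. The pieces were the primary mouth (arrays 1a, 2 and 3), the place on the face where ectoderm lies directly on foregut endoderm, anterior dorsal tissue (arrays 1, 2 and 3), and ventral tissue with the cement gland, a mucus gland of the tadpole head (arrays 1, 2 and 3). Each sample is therefore a mixed pool of cell types. The letter in 1a is not explained in the labels, nor is it stated that samples came from separate clutches. The p-values therefore describe the spread among these samples alone, and that spread may be technical.

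Epithelial cells carry intermediate filaments made of keratin pairs, 1 type I and 1 type II chain. Tight junctions, built from claudins and occludin on a scaffold of tjp proteins, seal the space between cells. Cadherins bind neighbouring cells and are tied to actin by catenins. Desmosomes use plakophilins, plakoglobin (jup) and desmoplakin (dsp) to anchor keratin filaments at the membrane. At the primary mouth these sheets of ectoderm and endoderm come to lie against each other and later open.

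Signals are MAS5 intensities on a linear scale, scaled so that the trimmed mean was 150 units on all 9 arrays. Median signals were 51.1 to 59.6 units. Pearson correlations of log2(signal + 16) between arrays, taken over all probe sets, were 0.9593 to 0.9892 within a tissue and 0.9158 to 0.9702 between tissues, and 0 array pairs were identical. The beta-actin control probe sets split the arrays in a way the labels do not mention. Their ratio of 3' to 5' signal was 5.476 to 11.24 in 4 arrays, namely mouth 1a and mouth 2 together with the first anterior dorsal and the first ventral array. It was 1.465 to 2.032 in the remaining 5. These are called arrays of high and of low actin ratio below, and counts are given with this split as a term in the model and within each kind of array. Among the arrays of high ratio only the mouth has a pair, so the spread there comes from that pair alone. Among those of low ratio the mouth has 1 array, mouth 3, so both mouth contrasts there rest on that array.

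Probe sets entered the test when 3 or more of the 9 arrays exceeded their own 40th percentile. Of the 86 probe sets, 63 were tested, 54 of them above that level on all 9 arrays, and 1, tjp3.L, would have missed the test without the 3 arrays of 1 tissue, ventral, where it was highest. The 23 left out had signals of 0.253 to 35.9 units. They include 13 keratin probe sets, among them krt15.1.S, krt17.S, krt55.L and krt61.L, and also dsc3.S, tp63.L, grhl3.L, tjp3.S, cdh6.L and cdh20.L. Such low signals were not read as absence.

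Where epithelial genes differed, most were lower in anterior dorsal than in ventral tissue, and more were higher than lower in the mouth against anterior dorsal tissue. Tests were made with limma on log2(signal + 16) over 10011 probe sets, with a Benjamini-Hochberg adjusted p of 0.05 as threshold. In primary mouth against anterior dorsal tissue, 14 of the 63 tested probe sets (22.2%) were higher, against 4.68% of all tested probe sets, and 2 (3.17%) were lower, against 4.87%. In primary mouth against ventral tissue, 1 (1.59%) was higher, against 4.42%, and 9 (14.3%) were lower, against 10.1%. In anterior dorsal against ventral tissue, 2 (3.17%) were higher, against 10.5%, and 27 (42.9%) were lower, against 14.1%. The 27 include tjp3.L, and 26 of 62 are left without it. At least 1 contrast was passed by 33 probe sets (52.4%), against 29.3% of all.

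The median log2 fold change of the 63 probe sets was 0.13 in mouth minus anterior dorsal tissue, where the median over all tested probe sets was -0.01. It was -0.23 in mouth minus ventral tissue, against 0.06, and -0.57 in anterior dorsal minus ventral tissue, against 0.04. Since the 3 contrasts share arrays, they are not independent of each other. In dissected pieces of mixed tissue, fewer cells of a type and less RNA per cell cannot be told apart.

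**Figure D1:**
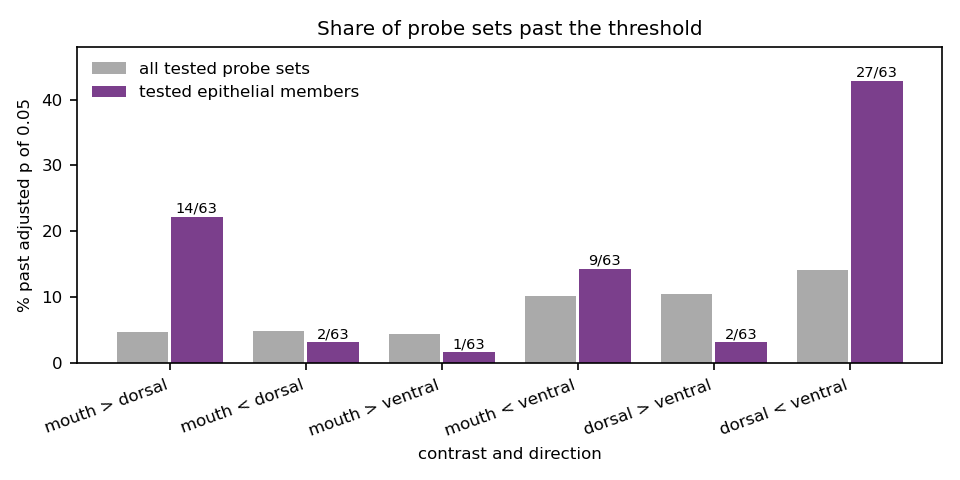
Percent of probe sets past an adjusted p of 0.05 in each contrast and direction (y axis, percent; x axis, contrast and direction). Grey bars are all 10011 tested probe sets and purple bars the 63 tested epithelial probe sets, with the number past the threshold above each; the tallest purple bar is anterior dorsal below ventral tissue, at 27 of 63.

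With the actin ratio as a term, more probe sets passed among the epithelial genes and among all probe sets. Mouth against anterior dorsal tissue then had 21 higher and 5 lower of 63, against 7.9% and 8.11% of all. Mouth against ventral tissue had 3 higher and 13 lower, against 8.76% and 13.8%. Anterior dorsal against ventral tissue had 5 higher and 41 lower, against 17.7% and 19.1%. Within the arrays of high ratio the counts were 10 higher in mouth than anterior dorsal tissue (2.35% of all), 6 lower in mouth than ventral tissue (5.28% of all) and 10 lower in anterior dorsal than ventral tissue (5.96% of all). Within the arrays of low ratio the same counts were 17 (3.61% of all), 9 (8.61% of all) and 37 (16.2% of all). In these fits a tissue with a single array is assumed to vary like the others.

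The number in the titles paired anterior dorsal with ventral arrays, whose deviations from the tissue means correlated at 0.676, 0.51 and 0.537 for numbers 1, 2 and 3, but not all mouth arrays. In these 2 tissues array 1 is also the array of high ratio, so number and ratio overlap. With the number as a block, anterior dorsal against ventral tissue had 4 higher (15.7% of all) and 35 lower (17.6% of all). In mouth against anterior dorsal tissue the block gave 16 higher (8.08% of all) and 5 lower (8.44% of all), and in mouth against ventral tissue 2 higher (9.27% of all) and 17 lower (14.2% of all). Among the calls gained in anterior dorsal against ventral tissue, krt70.L and ctnnbip1.L were higher. The lower ones were epcam.L, krt12.4.S, krt19.S, cldn4.L, jup.L, jup.S, the second ctnna1.S probe set and the third of cldn7.L. Adjusted p-values of single genes below are from the fit without the block unless the block is named.

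Across tissues, 12 probe sets (19.0%) were lower in anterior dorsal than in both other tissues, against 3.11% of all tested probe sets. They belong to krt18.1.L, krt18.1.S, krt19.L, cldn6.1.L, cldn6.1.S, cldn6.2.L, cldn6.2.S, cldn7.L (both of its lower-variance probe sets), cdh3.L, dsp.L and pkp2.L. Another 8 (12.7%) were higher in ventral tissue than in both others, against 8%, and these belong to ppl.L, evpl.L, trim29.L, cldn1.S, cldn5.S and krt70.S. The adhesion gene cdh11.S alone was higher in the mouth than in both others (1.59%, against 1.16%), and cdh2.L alone was higher in anterior dorsal tissue than in both (1.59%, against 3.93%). Leaving out anterior dorsal array 3 reduced the first count from 12 to 7, and leaving out ventral array 3 reduced the second from 8 to 5.

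**Figure D2:**
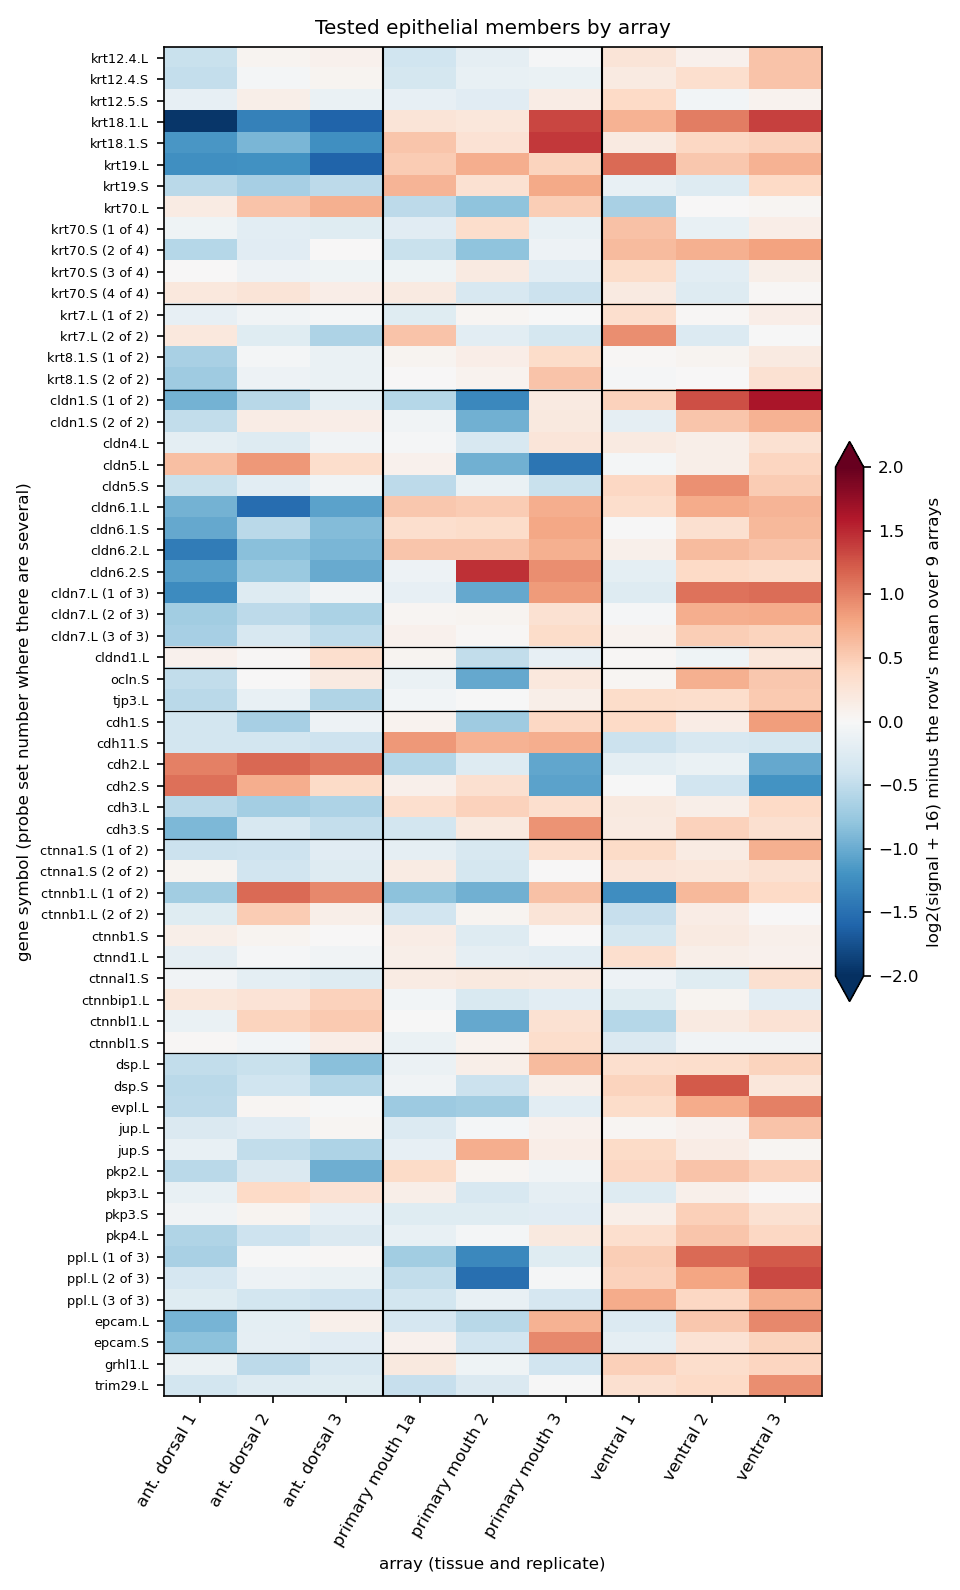
Heat map of the 63 tested epithelial probe sets (rows, gene symbols grouped by class) on the 9 arrays (columns, tissue and replicate). Colour is log2(signal + 16) minus the row's mean over 9 arrays, from -2 (blue) to 2 (red). The krt18.1, krt19 and cldn6 rows are blue in the anterior dorsal columns and mostly red in mouth and ventral columns. Exceptions include ventral 1 and 2 of krt19.S and mouth 1a and ventral 1 of cldn6.2.S. The ppl.L and evpl.L rows are red in the ventral columns.

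The keratins differed from gene to gene. Those of simple epithelia, krt18.1 (a type I chain that pairs with krt8) and krt19 (a type I chain of simple epithelia in mammals), were low in anterior dorsal tissue and high in mouth and ventral tissue. With tissue alone in the model, the keratins of the larval epidermis, krt12 and krt70, passed no contrast except for 1 probe set of krt70.S. Not passing is not read as equal levels, and both copies of krt12.4 were highest in ventral tissue. Of 12 tested type I probe sets, 4 were higher in mouth than in anterior dorsal tissue (4.68% of all). Another count of 4 was lower in anterior dorsal than ventral tissue (14.1% of all). Of 4 tested type II probe sets, 0 passed a contrast in limma's fit to all arrays (2 had an unadjusted p under 0.05 in mouth against anterior dorsal tissue), and with the actin ratio as a term 2 passed both contrasts of anterior dorsal tissue.

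Signals of krt18.1.L (gene ID 380504) were 262, 403 and 338 in the anterior dorsal arrays, 1275, 1238 and 2686 in the mouth arrays and 1718, 2168 and 2758 in the ventral arrays. All 6 mouth and ventral arrays lay above all 3 anterior dorsal arrays, and mouth and ventral arrays overlapped. The log2 fold change was 2.24 ± 0.29 (SE) in mouth minus anterior dorsal tissue, with limma adjusted p = 0.000299, and -2.66 ± 0.29 in anterior dorsal minus ventral tissue, with adjusted p = 3.07e-05. Mouth minus ventral tissue was -0.42 ± 0.29, with a 95% interval of -1.05 to 0.21 and adjusted p = 0.374.

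The other copy, krt18.1.S (gene ID 398482), had signals of 165, 200.03 and 159 in anterior dorsal, 587, 483 and 1068 in mouth and 445, 529 and 544 in ventral arrays. Anterior dorsal arrays were again the lowest with no overlap. The log2 fold change was 1.86 ± 0.25 in mouth minus anterior dorsal tissue (adjusted p = 0.000388) and -1.45 ± 0.25 in anterior dorsal minus ventral tissue (adjusted p = 0.000969). In both copies mouth array 3 was the highest of the mouth arrays, and mouth array 3 is the mouth array of low actin ratio.

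Signals of krt19.L (gene ID 432054) were 1235, 1254 and 949 in anterior dorsal, 4184, 4837 and 4007 in mouth and 6459.7, 4262 and 4724 in ventral arrays. The lowest mouth or ventral array stood at more than 3 times the highest anterior dorsal array, and mouth and ventral arrays overlapped. The log2 fold change was 1.91 ± 0.19 in mouth minus anterior dorsal tissue (adjusted p = 4.7e-05) and -2.14 ± 0.19 in anterior dorsal minus ventral tissue (adjusted p = 5.66e-06). The copy krt19.S (gene ID 779233) read 1105, 1010.2 and 1124, 2607, 1994 and 2759 and 1461, 1343 and 2141 in the same order of tissues. Its mouth minus anterior dorsal difference of 1.16 ± 0.20 passed (adjusted p = 0.00211), while anterior dorsal minus ventral tissue, -0.57 ± 0.20, had adjusted p = 0.0517 (0.0134 with the number as a block). With the actin ratio as a term krt19.S also passed against ventral tissue, higher in the mouth by 0.63 with adjusted p = 0.0195.

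The abundant epidermal keratins of the krt12 group passed no contrast with tissue alone in the model. Signals of krt12.4.L, a larval epidermal keratin of Xenopus, were 3142, 4417 and 4529.9 in anterior dorsal, 3242, 3753 and 4188 in mouth and 5130.1, 4541 and 6372 in ventral arrays. Ventral arrays were the highest, and anterior dorsal and mouth arrays overlapped. The mouth minus anterior dorsal difference was -0.10 ± 0.19, with a 95% interval of -0.52 to 0.32, and mouth minus ventral tissue was -0.51 ± 0.19, with an interval of -0.93 to -0.09 and adjusted p = 0.104. With krt12.4.S the mouth minus ventral difference was -0.57 ± 0.18 (adjusted p = 0.0511, and 0.0217 with the actin ratio as a term). Its anterior dorsal minus ventral difference was -0.52 ± 0.18 (adjusted p = 0.0542). That adjusted p was 0.00642 with the actin ratio as a term and 0.0176 with the number as a block. For the third such gene, krt12.5.S, mouth minus anterior dorsal tissue was -0.02 ± 0.17, with an interval of -0.40 to 0.36.

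The probe sets of krt70.S (gene ID 397756), another larval epidermal keratin, did not give the same picture. The brightest of 4 had signals of 7776, 7198 and 7004 in anterior dorsal, 7088, 10552 and 7507 in mouth and 12464, 7459.5 and 9112 in ventral arrays, which overlapped, and it passed no contrast. The dimmest had 35.5, 49.2 and 61, 40.1, 27.8 and 55.6 and 102, 109.8 and 117, with the ventral arrays above all others. It was lower in mouth than ventral tissue by a log2 fold change of -1.16 ± 0.21 (adjusted p = 0.0027) and lower in anterior dorsal than ventral tissue, at -0.98 ± 0.21 (adjusted p = 0.00451). The remaining 2 passed no contrast. Of the 4, 3 carry a suffix (_a_at or _x_at) of probe sets whose probes may match several transcripts, and the brightest is marked _a_at. The single probe set of krt70.L ran 745, 994 and 1098, 458, 372 and 938 and 418, 669 and 686 in the same order of tissues. Mouth minus anterior dorsal tissue was -0.76 ± 0.31 (adjusted p = 0.163, and 0.0421 with the actin ratio as a term). Anterior dorsal minus ventral tissue was 0.68 ± 0.31 (adjusted p = 0.141, and 0.00275 with the actin ratio as a term).

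The type II keratins had smaller log2 fold changes between tissues than krt18.1. The brighter probe set of krt7.L, a partner chain of simple epithelia in mammals, read 4094, 4368 and 4455 in anterior dorsal, 3873, 4707 and 4544 in mouth and 5797, 4639 and 5024 in ventral arrays. Its mouth arrays overlapped both other tissues, and mouth minus anterior dorsal tissue was 0.02 ± 0.15, with a 95% interval of -0.31 to 0.35. The partner of krt18, krt8.1.S, read 1824, 2789.7 and 2601, 2953, 3127 and 3709 and 2916, 2979 and 3224 on 1 of its 2 probe sets. Every mouth and ventral array lay above every anterior dorsal array, but mouth minus anterior dorsal tissue was only 0.45 ± 0.18 (adjusted p = 0.154). With the actin ratio as a term it passed, at 0.56 with adjusted p = 0.0116, and the second probe set passed at 0.67 with adjusted p = 0.00393.

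**Figure D3:**
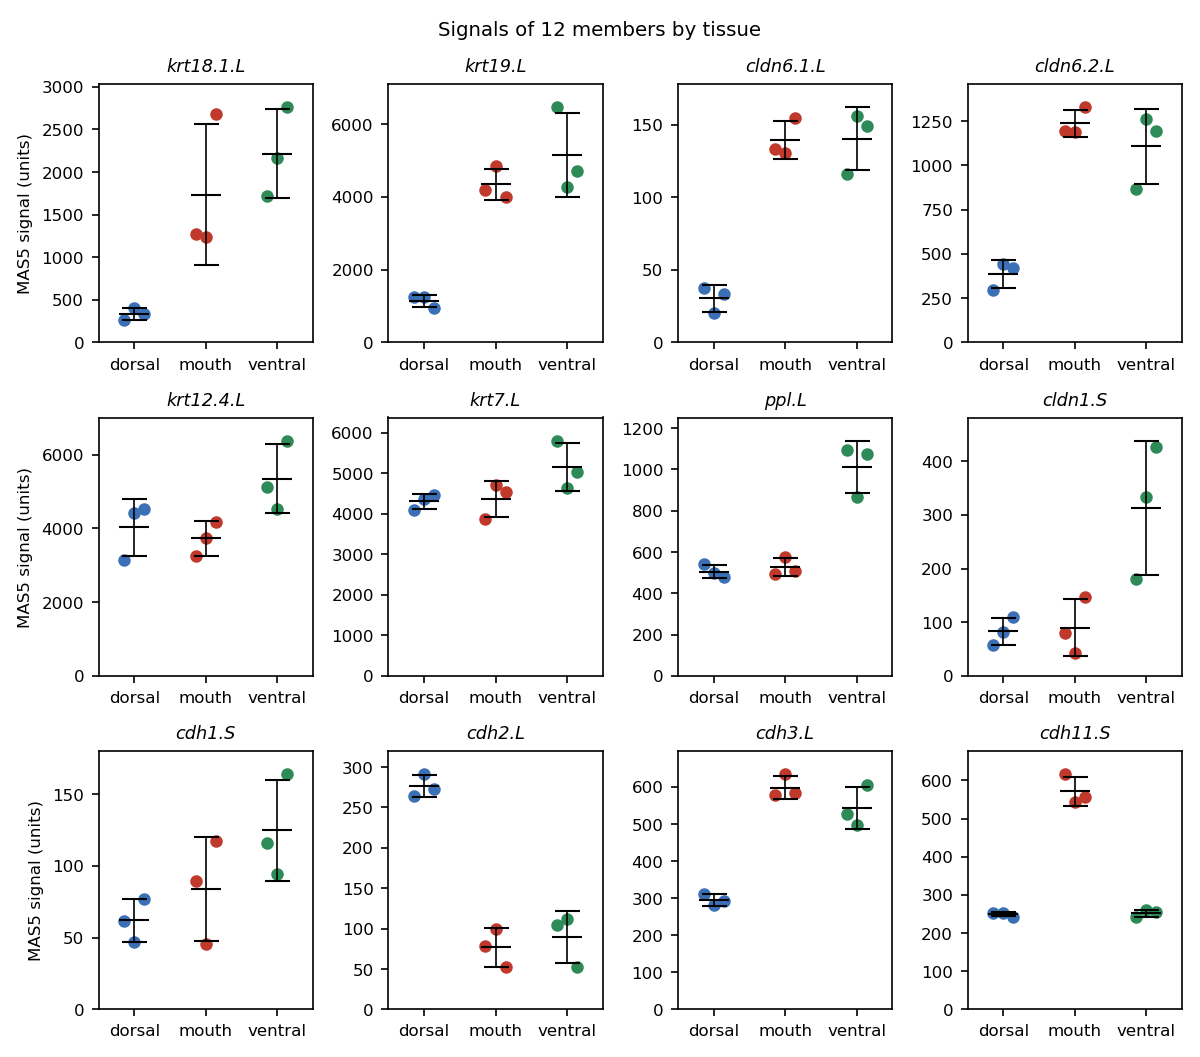
MAS5 signal (y axis, linear units from 0) of 12 probe sets in anterior dorsal (blue), mouth (red) and ventral (green) tissue; points are arrays, and bars are the mean ± SD of 3 arrays. The top row is low in anterior dorsal tissue, krt12.4.L and krt7.L passed no contrast, and ppl.L and cldn1.S are highest in ventral tissue. The highest signals of cdh2.L are in anterior dorsal tissue and those of cdh11.S in mouth.

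Claudins, the sealing proteins of tight junctions, were all tested (12 of 12 probe sets). In mouth against anterior dorsal tissue 6 were higher (4.68% of all) and 1 lower (4.87% of all). In anterior dorsal against ventral tissue 8 were lower (14.1% of all), with a median log2 fold change of -1.11 over the 12. In mouth against ventral tissue 2 were lower (10.1% of all).

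The cldn6 genes were lower in anterior dorsal tissue than in both other tissues, in both genes and both copies. Signals of cldn6.1.L (gene ID 446591) were 37.8, 20.05 and 33.4 in anterior dorsal, 134, 131 and 155 in mouth and 116, 156 and 149 in ventral arrays. The anterior dorsal arrays lay far below the rest, near the level that separates tested from untested probe sets, and mouth and ventral arrays overlapped. The log2 fold change was 1.76 ± 0.19 in mouth minus anterior dorsal tissue (adjusted p = 9.1e-05) and -0.0018 ± 0.19 in mouth minus ventral tissue, with a 95% interval of -0.42 to 0.42. 

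Signals of cldn6.2.L (gene ID 398409) were 294, 445 and 421 in anterior dorsal, 1194, 1192 and 1328 in mouth and 865, 1261 and 1195 in ventral arrays, again with the anterior dorsal arrays below all others. Mouth minus anterior dorsal tissue was 1.66 ± 0.20 (adjusted p = 0.000151). The copy cldn6.1.S read 68.4, 102 and 78.5, 201, 205 and 277 and 155, 199.6 and 252, and was higher in the mouth than in anterior dorsal tissue by 1.30 ± 0.21 (adjusted p = 0.00156). The copy cldn6.2.S read 449.5, 575 and 473, 900.3, 2693 and 1859 and 842, 1291 and 1240.5, and was higher in the mouth by 1.70 ± 0.32 (adjusted p = 0.00454). In both copies every anterior dorsal array lay below every other array. For cldn6.2.S the anterior dorsal minus ventral difference of -1.13 ± 0.32 was lost when anterior dorsal 1 or 3 or ventral 2 or 3 was left out (adjusted p = 0.0606 to 0.0844). The probe set of cldn6.2.S carries the suffix _s_at, so its probes may also match related transcripts.

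The epithelial claudin cldn7.L (gene ID 379396) had 3 probe sets that differed in spread. On 1 of them the signals were 253, 287 and 264 in anterior dorsal, 429, 433 and 519.9 in mouth and 411, 702 and 711 in ventral arrays, with every anterior dorsal array below every other. It was higher in mouth than anterior dorsal tissue by 0.74 ± 0.21 (adjusted p = 0.041) and lower in anterior dorsal than ventral tissue, at -1.10 ± 0.21 (adjusted p = 0.00191). A second probe set gave 0.65 ± 0.18 and -0.83 ± 0.18 for the same contrasts (adjusted p = 0.0365 and 0.00409). The higher calls in mouth against anterior dorsal tissue, on both probe sets, were lost when any anterior dorsal or mouth array or ventral array 2 was left out (adjusted p = 0.0503 to 0.133), while those against ventral tissue passed with each array left out. The third probe set, at 236, 492 and 558, 522, 282 and 1074 and 488, 1262 and 1293, passed no contrast with tissue alone in the model. Its anterior dorsal minus ventral difference was -1.17 ± 0.48 (adjusted p = 0.101, and 0.0198 with the number as a block).

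The remaining claudins followed other patterns. Signals of cldn1.S (gene ID 379132), whose product seals the epidermis in mammals, were 58, 81.1 and 109 in anterior dorsal, 80.2, 42.5 and 147 in mouth and 179.8, 333 and 427 in ventral arrays on 1 probe set. The ventral arrays lay above all others, with a log2 fold change of -1.68 ± 0.37 in mouth minus ventral tissue (adjusted p = 0.00906). The second probe set of cldn1.S passed no contrast, at -0.64 ± 0.32 in mouth minus ventral tissue (adjusted p = 0.216).

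The copies of cldn5, an endothelial claudin in mammals, passed in different contrasts. Signals of cldn5.L were 108, 133 and 88.6 in anterior dorsal, 70.8, 26.1 and 13.5 in mouth and 63.8, 72.9 and 94.6 in ventral arrays. It was lower in mouth than anterior dorsal tissue, at -1.39 ± 0.32 (adjusted p = 0.0166). This call was lost without anterior dorsal array 2 or mouth array 2 (adjusted p = 0.0684 to 0.0837). In mouth minus ventral tissue cldn5.L was -0.95 ± 0.32 (adjusted p = 0.0715, and 0.0249 with the actin ratio as a term). Signals of cldn5.S were 30.4, 38.2 and 43.9, 27.8, 41.5 and 30.1 and 67.8, 102 and 73.7, with all ventral arrays above all others, and it was lower in mouth than ventral tissue, at -0.98 ± 0.19 (adjusted p = 0.00396). The copies were not tested against each other.

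The other tight junction members, leaving tjp3.L aside, passed no contrast in limma's fit to all arrays. The signals of cldn4.L were 829, 787 and 900.4 in anterior dorsal, 932, 756 and 1129 in mouth and 1078, 1032 and 1180.1 in ventral arrays, and mouth minus anterior dorsal tissue was 0.14 ± 0.17, with a 95% interval of -0.22 to 0.51. The claudin-domain gene cldnd1.L passed no contrast. Occludin (ocln.S), a transmembrane protein of the junction, was -0.74 ± 0.30 in mouth minus ventral tissue (adjusted p = 0.133). The scaffold gene tjp3.L read 16.9, 27 and 15.5, 30.1, 31.6 and 35.7 and 45.5, 45.4 and 53, with no overlap between any pair of tissues. Since it was tested only because of its ventral arrays, its difference from them is given without a test. Its mouth arrays lay between the others, and mouth minus anterior dorsal tissue did not pass (adjusted p = 0.117).

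Cadherins, the calcium-dependent adhesion receptors, differed in pattern from gene to gene. Of 10 probe sets 6 were tested. Against anterior dorsal tissue 2 were higher in the mouth (cdh3.L and cdh11.S, 4.68% of all) and 1 was lower (cdh2.L, 4.87% of all). Against ventral tissue cdh11.S was higher in the mouth (4.42% of all).

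Signals of cdh11.S (gene ID 100337621), a cadherin of cranial neural crest in Xenopus, were 252, 252 and 243 in anterior dorsal, 615, 543 and 556 in mouth and 242, 260.1 and 254 in ventral arrays. The mouth arrays were the highest, at more than 2 times the flanking arrays, which overlapped. Its log2 fold change was 1.15 ± 0.14 in mouth minus anterior dorsal tissue (adjusted p = 0.000181) and 1.13 ± 0.14 in mouth minus ventral tissue (adjusted p = 0.00019). Both calls kept their direction and passed under every setting that was tried.

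Signals of cdh2.L (gene ID 378518), N-cadherin of the neural tube, were 264, 291 and 273 in anterior dorsal, 78.1, 100.1 and 51.9 in mouth and 105, 111 and 52.6 in ventral arrays. The anterior dorsal arrays lay above all others without overlap. Mouth minus anterior dorsal tissue was -1.69 ± 0.25 (adjusted p = 0.000933), and anterior dorsal minus ventral tissue was 1.52 ± 0.25 (adjusted p = 0.000845). Its copy cdh2.S read 439, 332 and 259.7, 211, 248 and 84.6 and 194, 146 and 76.4 and was higher in anterior dorsal than ventral tissue by 1.27 ± 0.37 (adjusted p = 0.0252), a call lost without anterior dorsal 1 or 2 or ventral 2 or 3 (adjusted p = 0.0534 to 0.11). Mouth minus anterior dorsal tissue was -0.95 ± 0.37 for that copy (adjusted p = 0.144, and 0.00106 with the actin ratio as a term). The dim cadherins cdh6.L and cdh20.L were not tested and stood highest in anterior dorsal tissue, with cdh20.L at 17.8, 35.9 and 30.4 there and 7.30, 1.71 and 6.29 in the mouth.

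Signals of cdh3.L (gene ID 594865), C-cadherin of the early Xenopus embryo, were 311, 280.3 and 293 in anterior dorsal, 579, 634 and 583 in mouth and 527, 496 and 605 in ventral arrays. Anterior dorsal arrays were the lowest, while mouth and ventral arrays overlapped. The log2 fold change was 0.98 ± 0.14 in mouth minus anterior dorsal tissue (adjusted p = 0.000791) and -0.84 ± 0.14 in anterior dorsal minus ventral tissue (adjusted p = 0.001). Its copy cdh3.S read 85.6, 136 and 121, 132, 202 and 337 and 199.99, 245 and 221, with anterior dorsal and mouth arrays overlapping, and was lower in anterior dorsal than ventral tissue, at -0.89 ± 0.28 (adjusted p = 0.0342), and this call was lost without anterior dorsal 1 or 3 or any ventral array (adjusted p = 0.0535 to 0.113).

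E-cadherin, cdh1.S (gene ID 100337618), the main cadherin of surface epithelia, read 61.7, 47.1 and 77.2 in anterior dorsal, 89.4, 45.4 and 117 in mouth and 116, 94.7 and 164 in ventral arrays. The mouth arrays overlapped both other tissues. It was lower in anterior dorsal than ventral tissue, at -0.84 ± 0.28 (adjusted p = 0.0479), and leaving out any anterior dorsal array, mouth 1a, ventral 1 or ventral 3 lost the call (adjusted p = 0.0545 to 0.179). In mouth minus anterior dorsal tissue it was 0.31 ± 0.28, with a 95% interval of -0.31 to 0.92.

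The catenins tie cadherins to the cytoskeleton. Of 6 tested probe sets of ctnna1, ctnnb1 and ctnnd1, 1 passed a contrast, against 29.3% of all tested probe sets. This was ctnna1.S (alpha-catenin), at 203, 206 and 236 in anterior dorsal, 245, 220.5 and 356 in mouth and 369, 314 and 467 in ventral arrays, lower in anterior dorsal than ventral tissue, at -0.78 ± 0.20 (adjusted p = 0.0144). Without anterior dorsal 2 or ventral 3 the call was lost (adjusted p = 0.0528 to 0.0685), and its second probe set had adjusted p = 0.0905. In mouth minus anterior dorsal tissue beta-catenin, ctnnb1.S, was -0.09 ± 0.18, with a 95% interval of -0.48 to 0.29. There p120-catenin, ctnnd1.L, was -0.00094 ± 0.15, with an interval of -0.34 to 0.34. The probe sets of the copy ctnnb1.L were -0.87 ± 0.58, with an interval of -2.12 to 0.39, and -0.15 ± 0.24, with an interval of -0.67 to 0.37. With the actin ratio as a term the first of these was higher in anterior dorsal than ventral tissue by 0.53 (adjusted p = 0.0103). The 4 tested probe sets of ctnnal1, ctnnbip1 and ctnnbl1, which the symbol pattern also picks, are not junction catenins, and 0 passed in limma's fit to all arrays, where 1 had an unadjusted p under 0.05 in each contrast of anterior dorsal tissue.

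**Figure D4:**
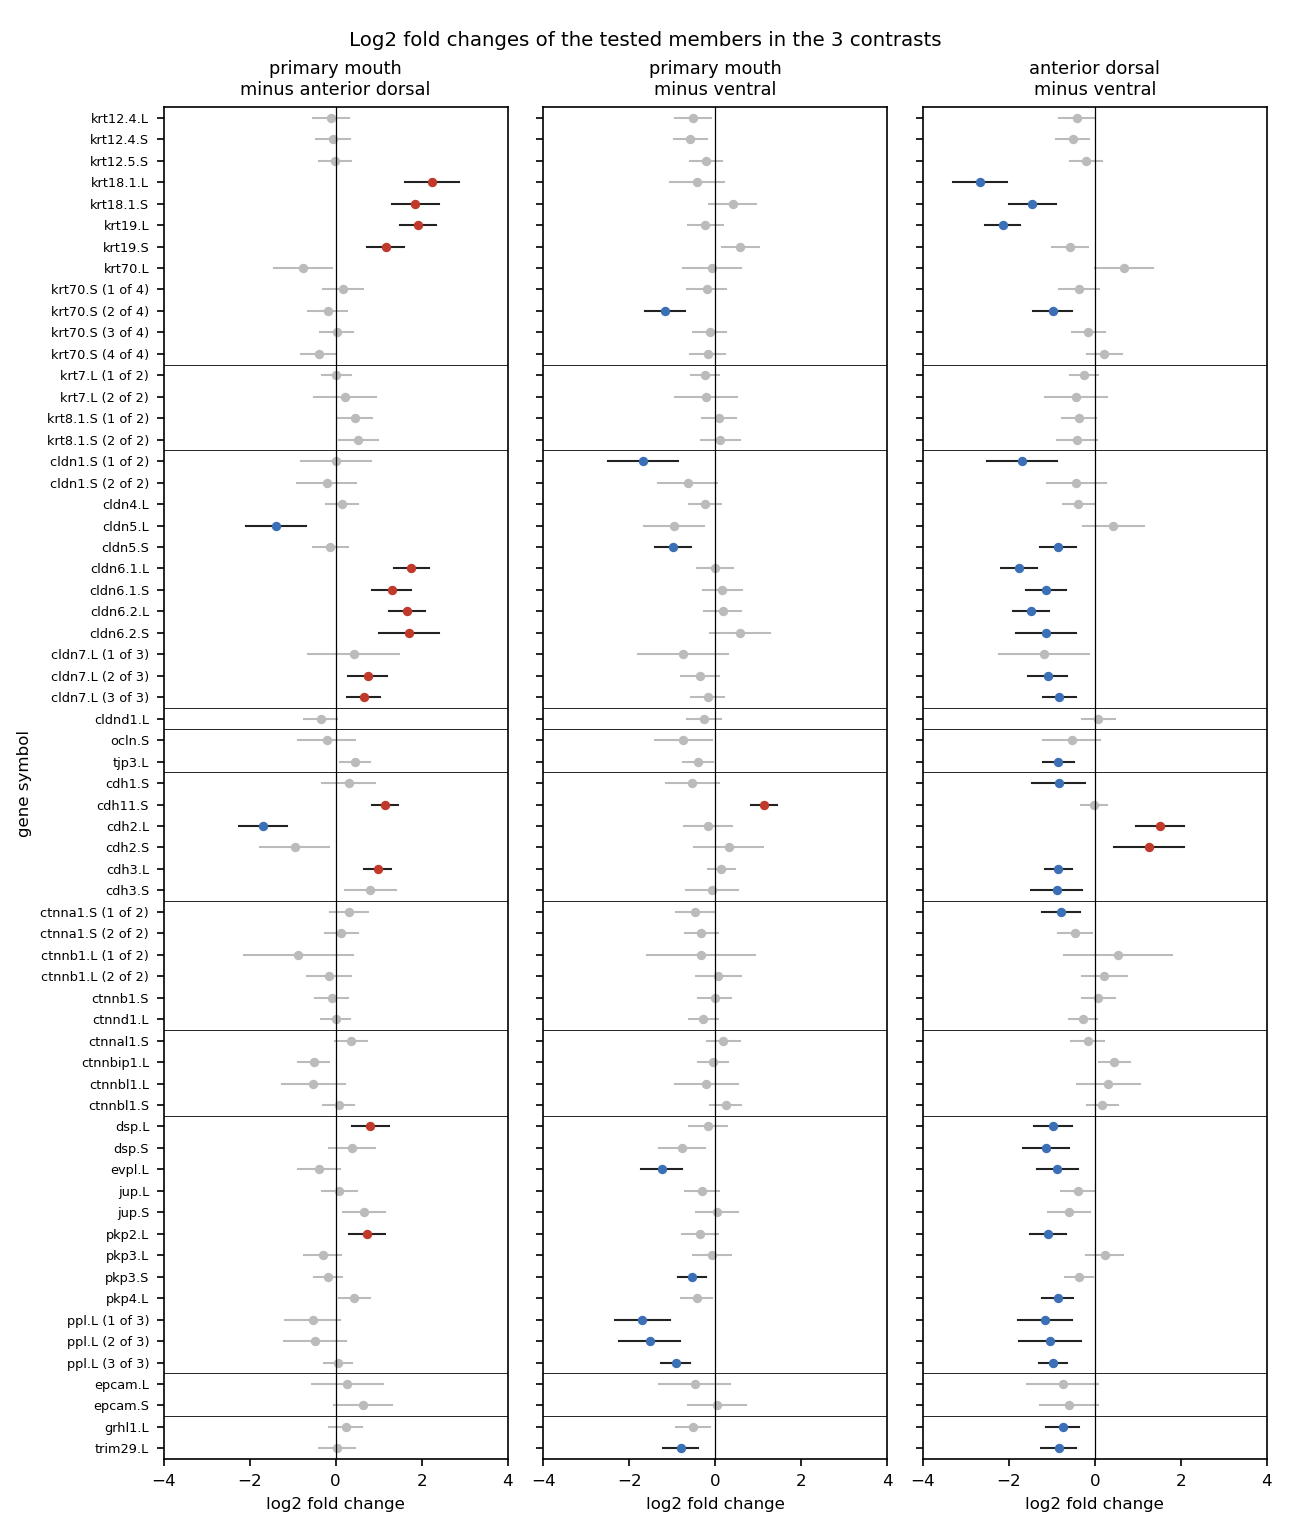
Log2 fold changes of the 63 tested probe sets (rows, by class) in the 3 contrasts (panels; x axis, log2 fold change on the log2(signal + 16) scale) with 95% intervals as bars. Red marks probe sets higher and blue lower at an adjusted p under 0.05, grey the rest; 27 blue points lie in the panel of anterior dorsal minus ventral tissue and 14 red points in that of mouth minus anterior dorsal tissue.

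Most desmosome and plakin probe sets were lower in anterior dorsal than in ventral tissue. Of 12 tested probe sets, 8 were lower in anterior dorsal than ventral tissue (14.1% of all), with a median log2 fold change of -0.92. In mouth against ventral tissue 5 were lower (10.1% of all), with a median of -0.48. Against anterior dorsal tissue 2 were higher in the mouth (4.68% of all), dsp.L and pkp2.L. The plakins ppl.L and evpl.L did not pass between mouth and anterior dorsal tissue, and dsp.L did not pass between mouth and ventral tissue.

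The plakins periplakin (ppl) and envoplakin (evpl) form part of the cornified envelope in mammals. The brightest of 3 probe sets of ppl.L (gene ID 495053) read 541, 498 and 478 in anterior dorsal, 494, 577 and 509.5 in mouth and 1094, 865 and 1074 in ventral arrays. Every ventral array was above every other array, and anterior dorsal and mouth arrays overlapped. Mouth minus ventral tissue was -0.92 ± 0.15 (adjusted p = 0.00169), while mouth minus anterior dorsal tissue was 0.06 ± 0.15, with a 95% interval of -0.28 to 0.39.

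The dimmest probe set of ppl.L read 27.9, 52.4 and 53.9, 26.3, 12.2 and 42.1 and 80.1, 135 and 145 and was lower in mouth than ventral tissue, at -1.69 ± 0.29 (adjusted p = 0.00202). The third read 176, 209.8 and 206, 157, 69.2 and 223 and 317, 402 and 586 and was lower, at -1.52 ± 0.33 (adjusted p = 0.00747). On both, the ventral arrays lay above all others. They were also lower in anterior dorsal than ventral tissue, but the first call was lost without ventral array 3 (adjusted p = 0.051) and the second without any of 5 arrays, all of anterior dorsal tissue and ventral 2 and 3 (adjusted p = 0.0747 to 0.141). Signals of evpl.L were 394, 589.9 and 569 in anterior dorsal, 341, 348 and 491 in mouth and 739.8, 967 and 1169 in ventral arrays, with the ventral arrays on top without overlap. It was lower in mouth than ventral tissue, at -1.25 ± 0.22 (adjusted p = 0.00244), and its anterior dorsal minus ventral call was lost without anterior dorsal 1 or ventral 3 (adjusted p = 0.0518 to 0.061).

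Desmoplakin, which links the desmosome to keratin filaments, gave 175, 180.3 and 134 in anterior dorsal, 232, 275 and 399.8 in mouth and 322, 324 and 349 in ventral arrays for dsp.L. All anterior dorsal arrays were the lowest, and mouth and ventral arrays overlapped. It was lower in anterior dorsal than ventral tissue, at -0.97 ± 0.20 (adjusted p = 0.00358) and higher in mouth than anterior dorsal tissue by 0.81 ± 0.20 (adjusted p = 0.0245). The second of these was lost without anterior dorsal 2 or 3 or mouth 3 (adjusted p = 0.0515 to 0.126). The copy dsp.S read 33.2, 38 and 32, 51.9, 36.6 and 61.1 and 80.8, 150.2 and 67.5, with the ventral arrays highest, and anterior dorsal minus ventral tissue was -1.13 ± 0.24 (adjusted p = 0.00464).

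The plakophilins, plaque proteins of the desmosome, differed by gene. Signals of pkp2.L were 734, 876 and 541 in anterior dorsal, 1411, 1108 and 1027 in mouth and 1444, 1602 and 1491 in ventral arrays, rising in that order of tissues without overlap. It was lower in anterior dorsal than ventral tissue, at -1.09 ± 0.19 (adjusted p = 0.00127) and higher in mouth than anterior dorsal tissue by 0.72 ± 0.19 (adjusted p = 0.0347), and the second was lost without anterior dorsal 1 or 3, mouth 1a or 2 or ventral 2 (adjusted p = 0.0548 to 0.171). Signals of pkp3.S were 398, 435 and 371, 352, 354 and 355 and 455, 591 and 524, lower in mouth than ventral tissue, at -0.54 ± 0.15 (adjusted p = 0.0321), and this was lost without anterior dorsal 3, mouth 1a or 2 or ventral 2 or 3 (adjusted p = 0.053 to 0.141). Only the anterior dorsal minus ventral contrast passed for pkp4.L, at -0.86 ± 0.17 (adjusted p = 0.00221). For pkp3.L and for plakoglobin, the plaque protein shared with adherens junctions, no contrast passed in limma's fit to all arrays. In mouth minus anterior dorsal tissue jup.L was 0.09 ± 0.18, with an interval of -0.31 to 0.49, and jup.S was 0.65 ± 0.22 (adjusted p = 0.0989). In anterior dorsal minus ventral tissue jup.S was -0.61 ± 0.22 (adjusted p = 0.0702, and 0.0181 with the actin ratio as a term). There jup.L was -0.39 ± 0.18 (adjusted p = 0.15, and 0.0475 with that term). With the number as a block the adjusted p in this contrast was 0.0458 for jup.S and 0.0427 for jup.L.

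The cell surface adhesion protein epcam passed no contrast in limma's fit to all arrays, where 0 of its 2 tested probe sets had an unadjusted p under 0.05. Signals of epcam.S were 342, 543 and 524 in anterior dorsal, 654, 470.0 and 1219 in mouth and 544, 754 and 848 in ventral arrays, and the mouth arrays overlapped both other tissues. With the actin ratio as a term epcam.S was higher in mouth than anterior dorsal tissue by 0.89 (adjusted p = 0.00171) and epcam.L by 0.61 (adjusted p = 0.0136).

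Of the epithelial regulators, grhl1.L and trim29.L were tested and both were lower in anterior dorsal than ventral tissue. Signals of trim29.L, a tripartite motif protein of stratified epithelia in mammals, were 359, 389 and 395 in anterior dorsal, 336, 382 and 467 in mouth and 591, 627 and 907 in ventral arrays. The ventral arrays lay above all others, with -0.81 ± 0.19 in mouth minus ventral tissue (adjusted p = 0.0131, lost without mouth 1a or ventral 3 at adjusted p = 0.0599 to 0.0617). The grainyhead-like factor grhl1.L, which acts in epidermal differentiation, read 292, 221 and 255, 371, 303 and 243 and 454, 416 and 442 and was lower in anterior dorsal than ventral tissue, at -0.74 ± 0.18 (adjusted p = 0.00859). The epidermal factors tp63.L and grhl3.L were too dim to be tested.

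Probe sets of the same gene, counting both copies, gave no opposite calls. For 21 genes with several tested probe sets, all probe sets passed the same way for 4 genes in mouth against anterior dorsal tissue, 1 in mouth against ventral tissue and 7 in anterior dorsal against ventral tissue. Some but not all passed for 5, 4 and 6 genes, and none for 12, 16 and 8. Log2 fold changes of both signs, not all past the threshold, occurred for 4, 9 and 3 genes in the same order of contrasts. The matching shares over all genes with several tested probe sets were not taken. These counts are therefore not read as a result about the epithelial genes. Probes may detect both copies, so a difference between copies is uncertain.

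Some epithelial genes also differed with the actin ratio. Of the 63 tested probe sets 23 (36.5%) differed between arrays of high and low ratio, with tissue in the model, against 25.6% of all tested probe sets. In the arrays of high ratio 21 were lower and 2 were higher. Of these 2, the dimmer krt7.L probe set was tested only because of arrays of high ratio, so its higher signal there is not read as a result. The largest shift was in ctnnb1.L, with 32.7 to 55.2 units on 1 probe set in the arrays of high ratio and 135 to 237 in those of low ratio, a log2 difference of -1.66 (adjusted p = 9.12e-06). The shift was -1.30 for the widest cldn7.L probe set (adjusted p = 0.000168), -1.02 for epcam.L (adjusted p = 0.000191) and -0.77 for krt70.L (adjusted p = 0.00141). The part of array quality in these differences was not tested.

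**Figure D5:**
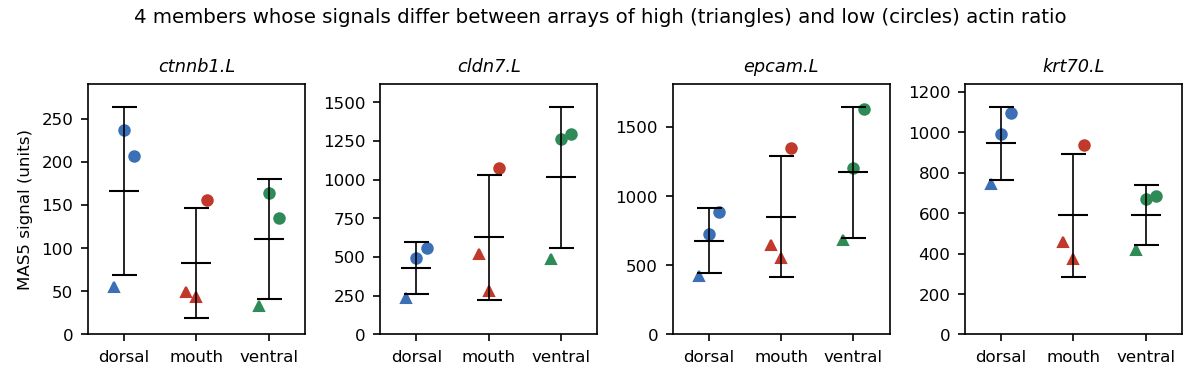
MAS5 signal (y axis, linear units from 0) of 4 epithelial probe sets by tissue. Triangles are arrays of high actin 3' to 5' ratio and circles arrays of low ratio, and bars are the mean ± SD of 3 arrays; in each tissue the triangles lie below the circles, as for ctnnb1.L with 32.7 to 55.2 against 135 to 237.

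Related genes outside the symbol pattern were counted in the same fit, from lists drawn up by function. Other than keratins, 8 probe sets of intermediate filament genes were tested, including both copies of vim, prph and lmnb1. Of these, 3 were lower in mouth than anterior dorsal tissue (4.87% of all) and 4 were higher in mouth than ventral tissue (4.42% of all). A further count of 5 was higher in anterior dorsal than ventral tissue (10.5% of all). The gene nefm.L was tested only because of its anterior dorsal arrays, and without it 2, 4 and 4 are left. The summed signal of the whole list, 15 probe sets of which 7 were not tested, was 6865 to 7839 in anterior dorsal, 3742 to 4263 in mouth and 2501 to 2549 in ventral arrays. The peripherin gene prph.L, of neurons, read 1257, 1344 and 1440.1 in anterior dorsal and 242, 158 and 190.3 in mouth arrays. The mesenchymal filament gene vim.L was higher in mouth than ventral tissue by 1.39 (adjusted p = 0.000203), and mouth minus anterior dorsal tissue was -0.31 (adjusted p = 0.315).

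Of 4 tested protocadherins, adhesion proteins of the wider cadherin family, 3 were higher in mouth than anterior dorsal tissue (4.68% of all), and against ventral tissue 2 were higher (4.42% of all) and 1 lower (10.1% of all) in the mouth. The gene pcdh8l.S read 47.3, 38.8 and 35.0 in anterior dorsal, 303, 361.6 and 574 in mouth and 156, 145 and 152 in ventral arrays, highest in the mouth without overlap. The gene pcdhga3.L read 53.5, 39.9 and 43.4, 127, 88.1 and 78.5 and 34.5, 50.3 and 35.3, and was also highest in the mouth, by 1.01 over ventral tissue (adjusted p = 0.00419). The gene pcdh8.2.L read 35.3, 30.5 and 31.2 in anterior dorsal, 145.7, 140.5 and 168 in mouth and 305.5, 369.6 and 436 in ventral arrays, highest in ventral tissue.

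Of 12 other tight junction and polarity probe sets tested, 2 (llgl2.L and amotl1.L) were higher in mouth than anterior dorsal tissue (4.68% of all). Another 2 (llgl1.S and magi1.S) were lower there (4.87% of all), and magi1.S was tested only because of its anterior dorsal arrays. Against ventral tissue amotl1.L was higher in the mouth by 0.72 (adjusted p = 0.0133) and cingulin (cgn.L) was lower, at -0.62 (adjusted p = 0.0362). Of 8 other adherens junction probe sets tested, that of actn1.L was higher in mouth than anterior dorsal tissue. The hemidesmosome gene dst.L was higher there too, by 0.72.

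Markers of other cell types also differed among the pieces, and each list is given by its summed signal over all its probe sets, tested or not. The 16 neural tube probe sets (10 gene symbols, with copies counted apart) summed to 5085 to 5883 units in anterior dorsal, 1242 to 1479 in mouth and 593 to 940.0 in ventral arrays. Of 14 tested, 12 were lower in mouth than anterior dorsal tissue (4.87% of all), but 6 of the 14 were tested only through the arrays of 1 tissue, and 6 lower calls are left without those. The 5 foregut endoderm probe sets, of which that of a2m.S gave most of the signal, summed to 570.4 to 627 in anterior dorsal, 3058 to 3666 in mouth and 2967 to 4809 in ventral arrays. This list was therefore low in anterior dorsal tissue, as were krt18.1, krt19 and cldn6. The 5 endothelial probe sets (4 gene symbols) summed to 114 to 149, 416 to 515 and 220.3 to 271 in the same order, highest in the mouth as was cdh11.S. 

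Ventral tissue was highest, without overlap, for several lists, as it was for ppl.L and evpl.L. The 6 cement gland probe sets (5 gene symbols) summed to 2966 to 4119, 5515 to 9469.5 and 19202 to 25434 units, and the 5 ionocyte probe sets to 151 to 163, 103 to 132 and 890.5 to 976 units. The heart list (10 probe sets) summed to 27.7 to 50.3, 264 to 347 and 1209 to 1367 units. Most of its mouth signal came from nkx2-5.S. On the same list tnni3.L read 1.24, 3.18 and 1.30 in mouth and 120, 157 and 62.2 in ventral arrays. The myeloid list (9) summed to 198 to 243, 357 to 379 and 1131 to 1767 units and the skeletal muscle list (6) to 184 to 256, 283 to 394 and 499 to 606 units. The 11 other epidermal probe sets (8 gene symbols) summed to 9066 to 10055, 8952 to 14354 and 11915 to 16737 units, where mouth and ventral arrays overlapped. The largest part of that signal came from itln1.L, which passed no contrast. All 11 were tested. In anterior dorsal against ventral tissue 6 were lower (14.1% of all) and 1 higher (10.5% of all). In mouth against ventral tissue 4 were lower (10.1% of all) and 1 higher (4.42% of all). Without foxi1.L, tested only because of its ventral arrays, 5 and 3 lower calls are left. The ciliated cell list (6) summed to 3168 to 3427, 3131 to 4009 and 3529 to 4553 units and also overlapped. Most of that signal came from tubb4b.L, which passed no contrast. Of the 6 ciliated cell probe sets, all tested, 4 were lower in anterior dorsal than ventral tissue (14.1% of all). In the mouth 2 were higher than in anterior dorsal tissue (4.68% of all) and 2 lower than in ventral tissue (10.1% of all). The neural crest list (6) summed to 184 to 206, 211 to 279.5 and 163 to 192 units, highest in the mouth. Most of the mouth signal came from tfap2a.L, which is also on the epidermal list. It read 104, 100.4 and 82.9 in anterior dorsal, 172, 244 and 195 in mouth and 132, 132 and 102 in ventral arrays. The other 5 probe sets were too dim to be tested, and without tfap2a.L the list was not highest in the mouth. The part of tissue makeup in the differences of the keratin and junction genes was not tested.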

How the data were processed

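The authors deposited a table of linear signal intensities, made with MAS5 per the submitters' processing notes (version not given in the sources used here). This method subtracts background and summarises perfect-match and mismatch probes. Trimming 2% of probe sets at either end gave a mean of 150 on every array, so that scaling was kept, and detection calls were not analysed here. Precision is limited by having 3 arrays per tissue.

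Of 15611 probe sets, 120 are controls. The platform annotation gives 1 symbol for 9304, several for 195 and none for 5992. By gene ID, 9227 matched the RefSeq gene table of Xenopus laevis, including all 86 probe sets described here, and 0 of these 86 changed symbol. Keratins whose number does not give their type were placed by their neighbours in that table, so krt70, krt51, krt55 and krt57 count as type I here although a first plan had krt70 as type II. Sequences and coordinates were not used here.

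Using limma 3.58.1 (R 4.3.3), tissue means were fitted to log2(signal + 16) on all 9 arrays by lmFit and eBayes with a variance trend and 6 residual degrees of freedom. Control probe sets were left out. Each pairwise contrast was tested on both sides and adjusted over 10011 probe sets by Benjamini-Hochberg. Log2 fold changes on this scale understate those of dim probe sets. The ± beside a log2 fold change is its standard error (SE) and intervals are 95%. The fit was tested on simulated data. Any probe set past the threshold could be named. Array values are given for the up to 4 with the largest change per class and contrast, and for a fixed list of well-known genes. The genes, lists and tests were chosen with earlier results of these data known. Deviations of same-numbered arrays from their tissue means correlated at 0.349 to 0.676 for 7 of 9 pairs, including all 3 of anterior dorsal with ventral arrays, and at -0.234 and -0.123 for the pairs of mouth array 2. The numbers were therefore taken as pairs between anterior dorsal and ventral tissue only, and only in the fit with a replicate block. The main fit carries no pairs, so adjusted p-values of single genes are unpaired unless the block is named. Blocked counts are also given for the mouth contrasts, where the block rests on numbers that did not pair mouth array 2. Alternatives were other pseudocounts (1 and 64), no filter or a 60th percentile filter, quantile normalization, no variance trend, a replicate block, each array left out, the actin ratio of the control probe sets (split at 3) as a term and within each kind of array, only the 2 tissues of a contrast, and 1 probe set per symbol.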

Additional observations from a re-analysis of the deposited data

How the results depend on the processing

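Counts in this section without a share over all probe sets beside them are not read as results about these genes. Over the 3 contrasts, 55 calls were made among the epithelial probe sets. Of these, 27 passed under every alternative that could be fitted, 40 passed with each array left out in turn, and 0 changed sign. Quantile normalization and a pseudocount of 1 each lost 1 call (cdh1.S in both), a pseudocount of 64 lost 0, no filter lost 2, and fitting only the tissues of a contrast lost 4. Quantile normalization also gained calls, among them krt12.4.L and krt12.4.S lower in mouth than ventral tissue. In anterior dorsal against ventral tissue it gained krt12.4.S, krt19.S and jup.S as lower and ctnnbip1.L as higher.

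With the actin ratio as a term 0 calls were lost and 33 were gained. Mouth against anterior dorsal tissue then had 5 lower (8.11% of all probe sets) and mouth against ventral tissue 3 higher (8.76%). Anterior dorsal against ventral tissue had 5 higher (17.7%) and 41 lower (19.1%). In that fit 4 probe sets were higher and 20 lower in anterior dorsal tissue than in both others, and 3 were higher in the mouth than in both. Calls also rose among all probe sets in that fit, so the counts without a share cannot be judged against the main fit. Within the arrays of high ratio 25 calls were lost, and the fit had 1 lower in mouth than anterior dorsal tissue, 10 lower in anterior dorsal than ventral tissue, 5 lower in anterior dorsal than in both and 4 higher in ventral than in both. Within the arrays of low ratio 3 calls were lost (pkp2.L in mouth minus anterior dorsal, pkp3.S and trim29.L in mouth minus ventral tissue), and the fit had 3 higher in mouth than ventral tissue, 4 higher in anterior dorsal than ventral tissue, 2 higher in anterior dorsal than in both and 3 higher in the mouth than in both. Both fits within 1 kind of array have fewer arrays, and why calls were lost or gained in them was not tested. Without the filter 4 were lower in mouth than anterior dorsal tissue, 4 higher in anterior dorsal than ventral tissue and 3 higher in anterior dorsal than in both. With 1 probe set per symbol 5 were lower in mouth than ventral tissue.

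The title numbers as a replicate block lost 0 calls and gained 24. The block gave 5 lower in mouth than anterior dorsal tissue (8.44% of all probe sets), 2 higher (9.27%) and 17 lower (14.2%) in mouth than ventral tissue, 4 higher in anterior dorsal than ventral tissue (15.7%), 4 higher in anterior dorsal than in both, 2 higher in the mouth than in both and 14 higher in ventral than in both. Of 9 arrays, 4 correlated best with their own number in both other tissues.

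With each array left out, mouth against anterior dorsal tissue had 10 to 14 higher and 1 to 3 lower, mouth against ventral tissue 1 to 2 higher and 8 to 13 lower, and anterior dorsal against ventral tissue 1 to 3 higher and 20 to 29 lower. Anterior dorsal tissue had 1 to 2 higher and 7 to 12 lower than both others, the mouth 1 to 2 higher and ventral tissue 5 to 11 higher. The cause of these changes was not tested. Counts in this section without a share over all probe sets beside them are not read as results about these genes.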
